A study of Camponotus floridanus with 15 samples.

Results

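Larval growth in the carpenter ant *Camponotus floridanus* was examined by setting instar 4 larvae against instar 1 larvae, the latest and the earliest larval stage sampled. The comparison uses 4 of the 15 libraries of the series, 2 of instar 4 and 2 of instar 1, chosen by their stage labels, and all 18979 genes of the deposited table. Poly(A) RNA of whole bodies was sequenced in libraries that keep the strand. The other 11 libraries are of embryo, early pupa, late pupa minor, late pupa major and minor (2 each) and of male (1), minors being small workers and majors large ones. All animals were laboratory ants on the same diet and light cycle, and no treatment or genotype is named. The labels do not give the caste or sex of the larvae, their age within the instar, or how many larvae went into a library. They also do not say whether the libraries of a stage came from separate animals or colonies, so the p-values cover no more than the spread of these libraries, which may be technical.

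Ants undergo complete metamorphosis: a legless larva hatches from the egg, is fed by workers, grows through a series of moults and then pupates. In insects, moults are driven by pulses of ecdysteroid hormone, and juvenile hormone sets whether a moult leads to another larva or towards the pupa. A young larva has only recently left the egg. Late larvae are known for gut enzymes, for a fat body that stores protein and lipid for the non-feeding pupa, and, in cocoon-spinning ants such as carpenter ants, for silk made in the labial glands. The IDs of the table are not paired with gene names in the sources used here, so no gene can be assigned to any of these processes, and the stage labels could not be checked against marker genes. Genes are therefore described by their levels across the stages.

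Levels are given as rescaled RPKM: the deposited RPKM, which is reads per gene length and per total of reads, divided by 1 factor per library that sets the median gene alike in all 15 libraries. The factors were 0.498 and 0.951 in instar 4 replicates 1 and 2, against 1.882 and 1.786 in instar 1 replicates 1 and 2. The reads by which the authors divided numbered 30480000 and 23230000 in the instar 4 libraries, against 23830000 and 16910000 in the instar 1 libraries. Reads on genes whose length could be recovered were 5740000 (18.8% of that total) and 7730000 (33.3%) in instar 4 replicates 1 and 2. In instar 1 they were 6980000 (29.3%) and 5170000 (30.6%). For a gene 1000 nt long, the deposited RPKM of 3 reads was 0.098 and 0.129 in instar 4, against 0.126 and 0.177 in instar 1. On the rescaled values used below the order turns: divided by the factors, this floor is higher in both instar 4 libraries than in either instar 1 library. A low gene is thus harder to detect in instar 4 on that scale. In whole bodies, fewer cells of a type and less RNA per cell cannot be told apart.

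Between instar 1 and instar 4, more genes rose than fell, relative to the median gene. Of 10619 genes tested, 549 rose and 285 fell (limma on log2(rescaled RPKM + 1), Benjamini-Hochberg adjusted p under 0.05), which is 5.17% and 2.68% of the genes and 7.85% together. The median log2 change was 1.70 among the genes that rose and -1.44 among those that fell. A log2 change past 4 was seen in 42 genes that rose and 18 that fell. In 543 of the 549 and 280 of the 285 the change was larger than the larger gap between the 2 libraries of an instar. The test calls genes whose change is large against the spread of libraries, so these counts describe the calls and are no check of them. The table holds a further 8360 genes that were too low for the test, 2949 of them at 0 in all 15 libraries. The share of genes whose 4 larval libraries do not overlap, without regard to the test, was 29.2% in the upward and 25.9% in the downward direction. The count of 834 calls was 368 without instar 1 replicate 1, 501 without instar 1 replicate 2 and 389 without instar 4 replicate 2. Without instar 4 replicate 1 it was 1013, with 433 falls.

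How many genes are said to rise depends on the scale. On deposited RPKM the median gene fell by 1.02 on the log2 scale, and 149 genes (1.38% of 10807) were called higher and 5375 (49.7%) lower in instar 4. All 285 falls on the rescaled values were also called on the deposited values, and so were 144 of the 549 rises. The other 405 rises were changes against the median gene: on deposited RPKM their median log2 change was 0.34 and it was above 0 in 313 of them. Scaled to the 75th percentile in place of the median, 426 genes rose and 403 fell. The deposited scale moves every gene down in instar 4 together, so that the 285 falls were also called there follows from the shift and is no check of them. No scale that moves the genes the other way was run.

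Rises outnumbered falls among genes of high level, and falls outnumbered rises among genes of low level; most genes of every level were not called. Among the 421 genes with a mean of at least 100 rescaled RPKM over all libraries, 81 rose (19.2%) and 7 fell (1.66%). In the 1404 genes between 20 and 100 the numbers were 162 (11.5%) and 23 (1.64%). Below 2 rescaled RPKM the order turned, with 47 rises (1.68%) and 102 falls (3.65%) in 2792 genes. The median log2 change moved with the level too, at 0.60 in the highest class and -0.16 in the lowest, so the scaling that centres all genes does not centre each class. How far sampling of low values shaped these shares was not tested.

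**Figure D1:**
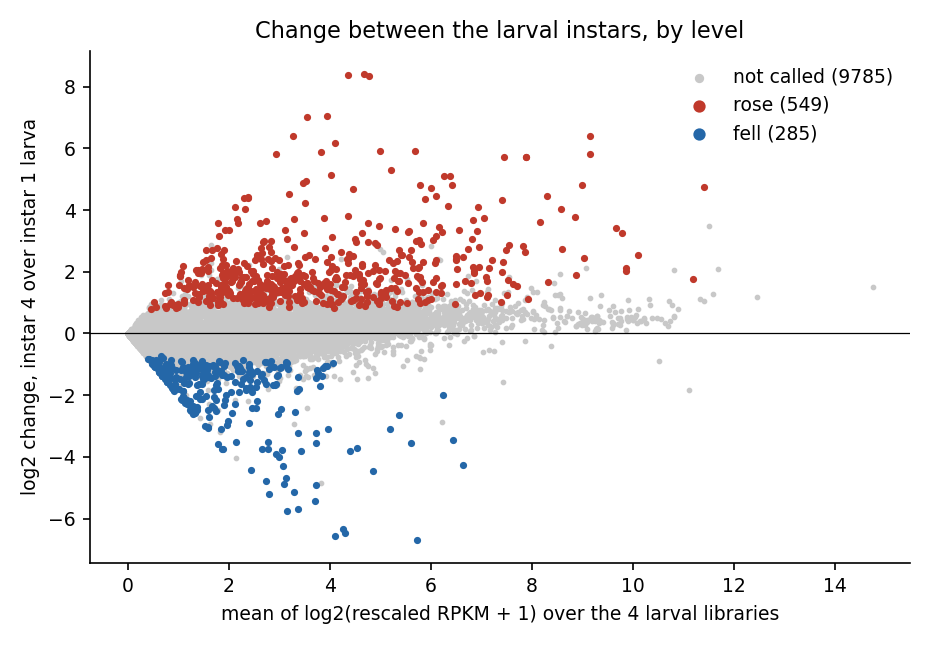
Each point is 1 of 10619 tested genes, with its mean log2(rescaled RPKM + 1) over the 4 larval libraries on the x axis and its log2 change, instar 4 over instar 1, on the y axis. Red points are the 549 genes that rose and blue points the 285 that fell. Rises extend to the highest levels, while most falls lie at the low end.

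The rises carried much of the messenger RNA of the older larvae. The 549 genes took 25.53% and 20.99% of the deposited RPKM total in the instar 4 libraries, against 5.90% and 5.11% in the instar 1 libraries. Outside the larvae their share was 6.61% and 5.59% in embryo, 9.35% to 11.75% over the 6 pupal libraries, 19.51% and 16.59% in minor and 15.55% in male. The 285 genes that fell took 0.13% and 0.12% in instar 4, against 2.73% and 2.16% in instar 1. Since these genes were chosen by their change between the instars, their larval shares are a description of the calls. The most abundant single transcript of both instars, CFLOG000597.1, singled out after its values were seen, did not pass the test. It stood at 57179 and 37570 rescaled RPKM in instar 4, against 14411 and 18617 in instar 1, a log2 change of 1.50 ± 1.12 (SE, limma adjusted p = 0.47). The SE draws on the spread within every group but male, which has 1 library. Among these groups is late pupa major, at 40.7 and 0 rescaled RPKM. It is therefore not a measure of the spread between larval libraries alone. On deposited RPKM the log2 change was 0.09 (limma adjusted p = 0.94).

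CFLOG012617.1 had the largest gain in level among the genes called on both scales. It was at 20419 and 9698 rescaled RPKM in instar 4 (170158 and 117668 reads over a coding length of 549 nt), against 967.5 and 280.2 in instar 1 (23816 and 4647 reads). Both instar 4 libraries were far above both instar 1 libraries, and the log2 change was 4.75 ± 0.87 (SE, limma adjusted p = 0.0047). In embryo it stood at 1598 and 1255 rescaled RPKM, above both instar 1 libraries, so instar 1 was a low point between embryo and instar 4. After the larval stages it was at 70.3 and 57.4 in early pupa and at no more than 37.8 in any later library. Without instar 1 replicate 2 the log2 change was 3.87 and just missed the threshold (adjusted p = 0.054, the highest of its 17 alternatives, whose lowest was 0.0017).

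CFLOG001253.2 had the second largest gain and ran down after the larval stages. It was at 9756 and 2776 rescaled RPKM in instar 4 (396274 and 164176 reads over 2676 nt), against 13.2 and 269.4 in instar 1 (1582 and 21774 reads). The groups did not overlap, but the libraries of each instar lay several-fold apart, and the log2 change of 6.39 ± 1.25 (SE, limma adjusted p = 0.0068) carries that spread. Embryo stood at 22.1 and 10, and early pupa at 35.7 and 193.7. From there the level ran down to 0.924 and 3.46 in minor and 0.276 in male. The change was 4.27 without instar 1 replicate 1 (adjusted p = 0.079) and 5.50 without instar 4 replicate 1 (0.052), and the adjusted p was between 4.7e-06 and 0.079 over its 17 alternatives. CFLOG000597.1, CFLOG012617.1 and CFLOG001253.2 were all lower in late pupa major replicate 2 (0, 0.268 and 0.935 rescaled RPKM) than in late pupa major replicate 1 (40.7, 14.1 and 7.78); whether their low levels outside larvae hold reads from larval libraries was not tested.

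CFLOG007208.2 had the largest loss in level and a course with several peaks. It was at 2.17 and 7.63 rescaled RPKM in instar 4 (50 and 256 reads over 1518 nt), against 653.4 and 441.0 in instar 1 (44469 and 20219 reads). The log2 change was -6.68 ± 0.92 (SE, limma adjusted p = 0.00072), and each of its 17 alternatives passed the threshold. Embryo was at 137.1 and 667.4, early pupa at 29.2 and 22.2, and late pupa minor at 8.21 and 95.2. Late pupa major was again high, at 620.2, between the instar 1 libraries, and 340.8, below both, while minor and male had at most 1.57.

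CFLOG002848.1 had the second largest loss and was high again in early pupa. It was at 17.6 and 26.8 rescaled RPKM in instar 4 (225 and 499 reads over 843 nt), against 338.8 and 565.1 in instar 1 (12806 and 14390 reads). The log2 change was -4.27 ± 0.58 (SE, limma adjusted p = 0.00068), and it too passed in each of 17 alternatives. Embryo stood at 120.9 and 78.6. Early pupa spanned 534.7 and 147.6, late pupa major 162.1 and 54.3, and all other libraries after instar 4 lay between 18.8 and 40.9, so instar 4 was a trough between instar 1 and early pupa.

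**Figure D2:**
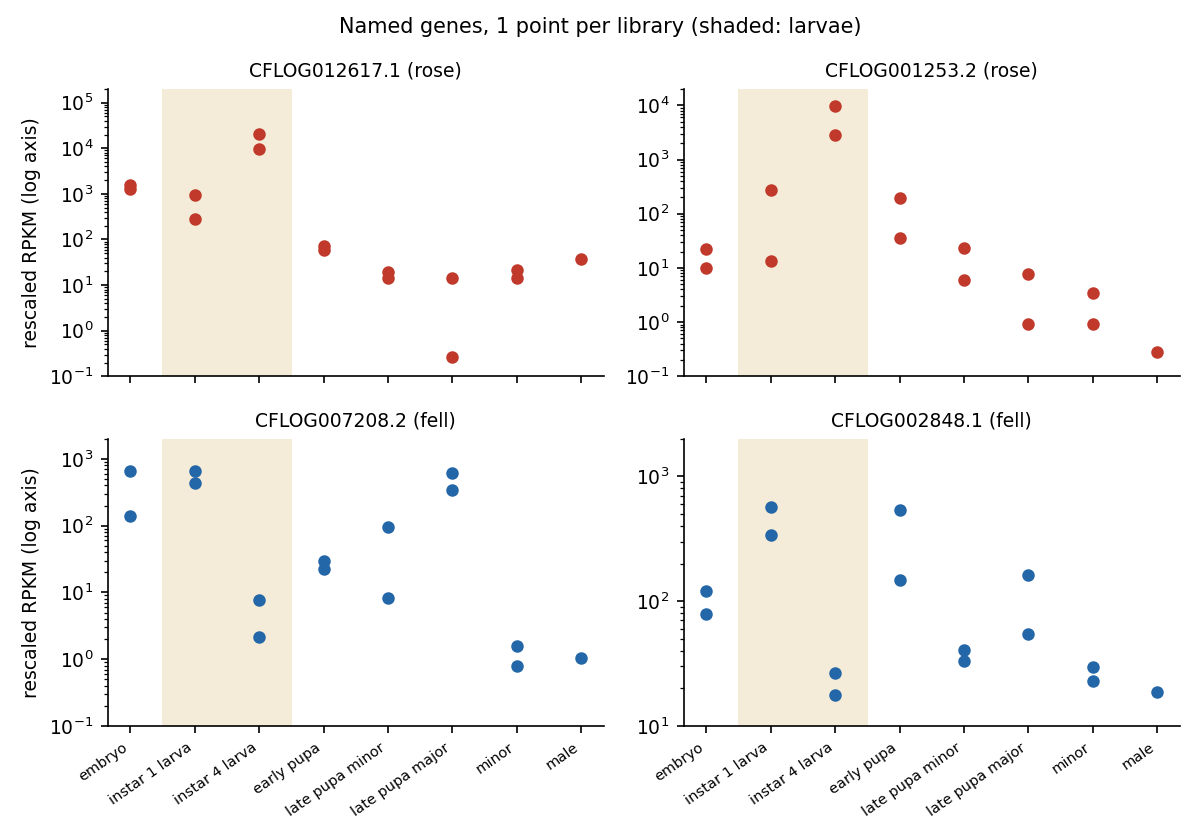
Each panel shows 1 gene, with rescaled RPKM on a log axis and 1 point per library in 8 groups in the order of development, the larval stages shaded. The 2 genes that rose (red) peak in instar 4 and are low after pupation, and the 2 that fell (blue) are low in instar 4 and high again in pupae, 1 in late pupa major and 1 in early pupa.

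Many falls ended near zero, and fewer rises started there. Of the 285 genes that fell, 154 (54%) were under 1 rescaled RPKM in both instar 4 libraries, with a median of 2.74 in instar 1. Of the 549 that rose, 85 (15.5%) were under 1 in both instar 1 libraries, with a median of 4.56 in instar 4. Among these 85 genes, 19 reached at least 10 and 7 at least 100 rescaled RPKM in instar 4, up to 730.6. Values of 0 in both instar 4 libraries were listed for 32 of the fallen genes. For 22 of these a gene length was known, and against a floor of 3 reads per library the fall was at least 16.7-fold in the median gene, with bounds from at least 2.59-fold to at least 127.3-fold. A floor covers counting error only.

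The genes that rose from under 1 and the genes that fell to under 1 differed in where else they reached that level. Of the 85 that rose from under 1, 6 were at 1 rescaled RPKM or more in both embryo libraries, 44 in both early pupa libraries, 36 in both late pupa minor libraries, 41 in both late pupa major libraries, 37 in both minor libraries and 42 in the male library. Under 1 in every library outside the larvae were 13 of them. Of the 154 that fell to under 1, 135 were at 1 or more in both embryo libraries, 34 in early pupa, 26 in late pupa minor, 36 in late pupa major, 20 in minor and 32 in male. Embryo thus had the lowest count of the outside groups for the genes that rose from under 1, and the highest for those that fell to under 1. The male counts rest on 1 library, and none of these counts was set against all tested genes. A level under 1 is a cut-off and not absence: 4 of the risen genes were listed at 0 in both instar 1 libraries. The lowest mean level in the other instar was 0.851 for these rises and 0.816 for these falls.

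Across all called genes, levels outside the larvae followed the same course. Among the 6 groups that the comparison did not use, embryo was the highest for 188 of the 285 fallen genes (66%), against 22.2% of all tested genes. For the risen genes embryo was the highest in 29 of 549 (5.28%). Their commonest highest group was minor, with 208 genes (37.9%, against 25.1% of all tested), followed by male with 101 (18.4%, against 15.8%) and early pupa with 90 (16.4%, against 14.1%). The 144 rises called on both scales had minor as the highest in 48 genes (33.3%) and embryo in 15 (10.4%). With the 4 larval libraries alone, a fit in which embryo took no part, embryo was the highest for 53.4% of the falls. With a mean of at least 5 rescaled RPKM it was the highest for 50.9% of the falls. The share of falls with embryo highest was 56.1% without instar 1 replicate 1 and 78.1% without instar 1 replicate 2, and it was 36.1% among the 5375 falls on deposited RPKM.

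**Figure D3:**
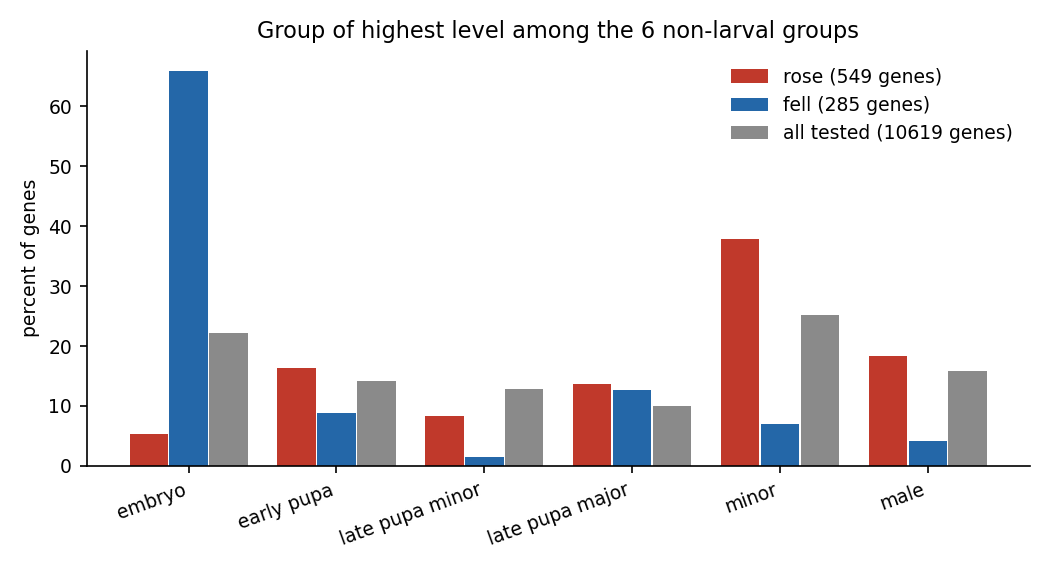
Bars give the percent of genes whose highest level among the 6 groups outside the larvae lay in the group on the x axis, for the 549 genes that rose (red), the 285 that fell (blue) and all 10619 tested genes (grey). Embryo holds 66% of the falls and 5.28% of the rises, and minor 37.9% of the rises.

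The median gene that rose stood at 3.92 rescaled RPKM in embryo, 4.37 in instar 1, 20.7 in instar 4, 7.79 in early pupa, 9.1 in late pupa minor, 10 in late pupa major, 12 in minor and 12 in male. These genes were chosen as lower in instar 1 than in instar 4, so a place of other groups between the 2 instars follows in part from the choice. Among the groups outside the larvae, embryo was the lowest, at 3.92, and the later groups lay between 7.79 and 12. The median gene that fell stood at 6.14 in embryo, 5.04 in instar 1, 0.729 in instar 4 and between 0.619 and 1.42 in the 5 later groups. Over all tested genes the median stayed between 3.81 and 4.31. Relative to embryo, minor was at least 1 log2 unit higher for 298 of the 549 risen genes (54.3%) and at least 1 lower for 52 (9.47%), where all tested genes gave 22.3% and 18.6%. For the fallen genes minor was at least 1 log2 unit higher in 14 of 285 (4.91%) and at least 1 lower in 211 (74%).

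**Figure D4:**
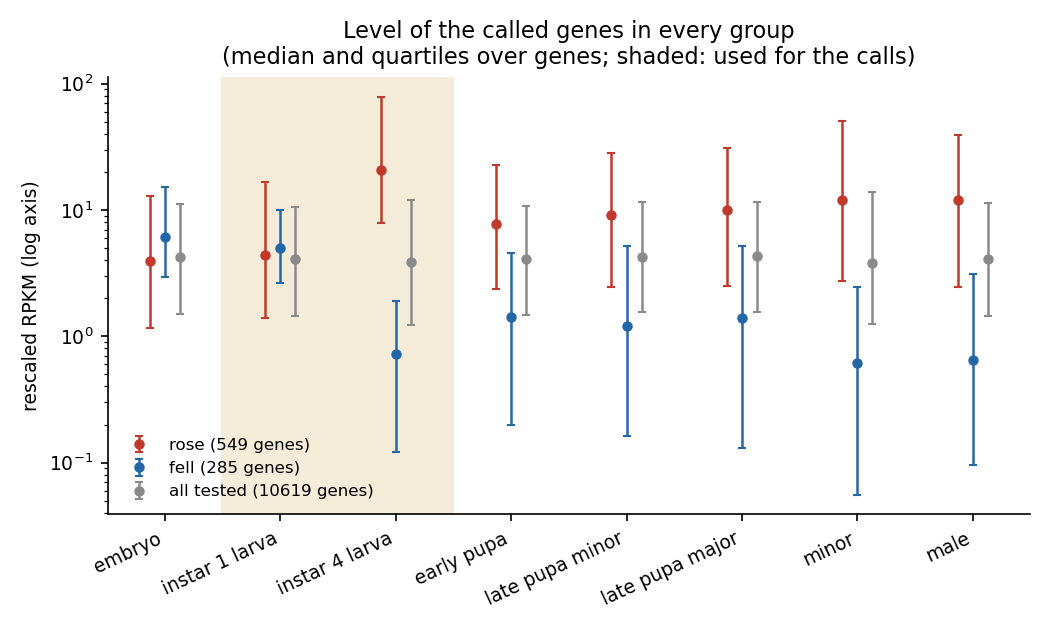
Points are medians over genes and bars the quartiles of rescaled RPKM, on a log axis, in the 8 groups. Colours mark genes that rose (red), genes that fell (blue) and all tested genes (grey). The shaded instars are those compared for the calls. Outside the shading, the risen genes are higher in every group after embryo, and the fallen genes are highest in embryo.

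Early pupa against embryo, a comparison in 4 libraries that hold no larva, showed what the called genes did on both sides of larval life. Of all 10619 genes, 1097 were higher in early pupa (10.3%) and 1276 lower (12%; limma, adjusted p under 0.05). Of the 549 genes that rose between the instars, 222 were higher in early pupa than in embryo (40.4%) and 55 lower (10%). Of the 285 that fell, 10 were higher (3.51%) and 184 lower (64.6%). The median log2 difference, early pupa minus embryo, was 0.55 in the risen genes, -1.44 in the fallen genes and 0.00 in all tested genes. Across the 10619 genes, which are not independent replicates and share a scaling and an estimate of spread in this fit, the 2 log2 changes had a Pearson correlation of 0.37.

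These shares moved little for the rises with the library left out and more for the falls. Leaving out each larval library in turn, between 40.9% and 42.5% of the rises were higher in early pupa. The share of falls that were lower in early pupa was 60.7% without instar 1 replicate 1, 81% without instar 1 replicate 2, 45.4% without instar 4 replicate 1 and 59% without instar 4 replicate 2. With both comparisons on deposited RPKM, 46 of the 149 rises (30.9%) were higher in early pupa and 24 (16.1%) lower, where all genes gave 3.91% and 37.2%. Of the 5375 falls on that scale 36 (0.67%) were higher and 2947 (54.8%) lower. The count of 2373 genes called between early pupa and embryo was itself 974 without embryo replicate 1, 1165 without early pupa replicate 1 and 1378 without early pupa replicate 2.

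The genes named above show that single genes depart from these shares. CFLOG012617.1, which rose between the instars, was lower in early pupa than in embryo (log2 difference -4.46 ± 0.87, SE, limma adjusted p = 0.0029). CFLOG007208.2, which fell, was lower too (-3.52 ± 0.92, adjusted p = 0.016). CFLOG001253.2 and CFLOG002848.1 differed by 2.40 ± 1.25 (adjusted p = 0.2) and 1.52 ± 0.58 (0.083) and did not pass.

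The IDs with the prefix XLOC, which form a small second series beside the prefix CFLOG, made up 13% of the falls. They were 314 of the 10619 tested genes (2.96%), and 37 of them fell (11.8%), against 248 of 10305 CFLOG genes (2.41%). Most of these loci are low, and at like levels the shares still lay apart: below 2 rescaled RPKM 26 of 169 XLOC genes fell (15.4%) and 76 of 2623 CFLOG genes (2.9%). Of XLOC genes 12 rose (3.82%). The excess depended on the scale: on deposited RPKM 196 of 327 XLOC genes fell (59.9%), against 49.4% of CFLOG genes, so XLOC made up 3.65% of the falls and 3.03% of the genes tested. On that scale without instar 4 replicate 2 the order turned, with 54.6% of XLOC and 68.9% of CFLOG genes lower. With a mean of at least 5 rescaled RPKM only 51 XLOC genes were tested (0.975% of the genes), and 4 fell, 3.77% of the falls. The XLOC lengths recovered from the values were multiples of 3 in 30.3% of cases and the CFLOG lengths in 91.7%. The sources used here do not explain the prefix.

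Those 37 XLOC loci were detected at the start of development, most of them at a low level, and were lower later. Their median was 0 rescaled RPKM in both instar 4 libraries, against 3.05 and 1.24 in instar 1, and it was 4.87 and 2.95 in embryo. At least 1 rescaled RPKM was reached by 3 and 2 of the 37 in instar 4, against 37 and 23 in instar 1. In embryo 37 and 36 reached it, and between 2 and 4 did in each library after instar 4. Each locus therefore passed the filter for testing on embryo and instar 1 libraries, the stages where it is high. These loci were chosen by their fall between the instars, so their larval values describe the calls. Their summed level was 8.02 and 5.62 rescaled RPKM in instar 4, against 667.2 and 189.9 in instar 1. In embryo the sum was 1197 and 977.2, and in the 9 libraries after instar 4 it was between 7.22 and 19.8. One locus carried much of these sums, 51.2% and 45.4% in instar 1 and 52.6% and 56.2% in embryo. Without the highest locus of each library the sum was 6.34 and 4.06 in instar 4, against 325.8 and 103.7 in instar 1. In instar 4, 21 and 22 of the 37 were listed at 0, while none (0) was in either instar 1 library. Embryo was the highest outside group for 34 of them, of 65 among all 314 tested XLOC genes. Lower in early pupa than in embryo were 35 of them, of 49 among the 314. Leaving out 1 larval library left between 19 and 41 XLOC falls.

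The 2 instar 1 libraries differed in how much of the embryonic set they held. Of the 188 fallen genes whose highest outside group was embryo, 148 (78.7%) were higher in instar 1 replicate 1 than in replicate 2, with a median log2 gap of 0.54. Of the 97 other fallen genes 36 (37.1%) were higher in replicate 1, with a median gap of -0.16. For the 37 XLOC falls it was 35 (94.6%), with a median gap of 0.86, and for all tested genes 52%. The gap was smaller over all 2359 tested genes with embryo as the highest outside group, a set that includes the 188. Of these 2359 genes 1620 (68.7%) were higher in replicate 1, with a median gap of 0.17. The labels give no age within the instar, so a difference in age between the libraries cannot be told apart from other differences between them.

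**Figure D5:**
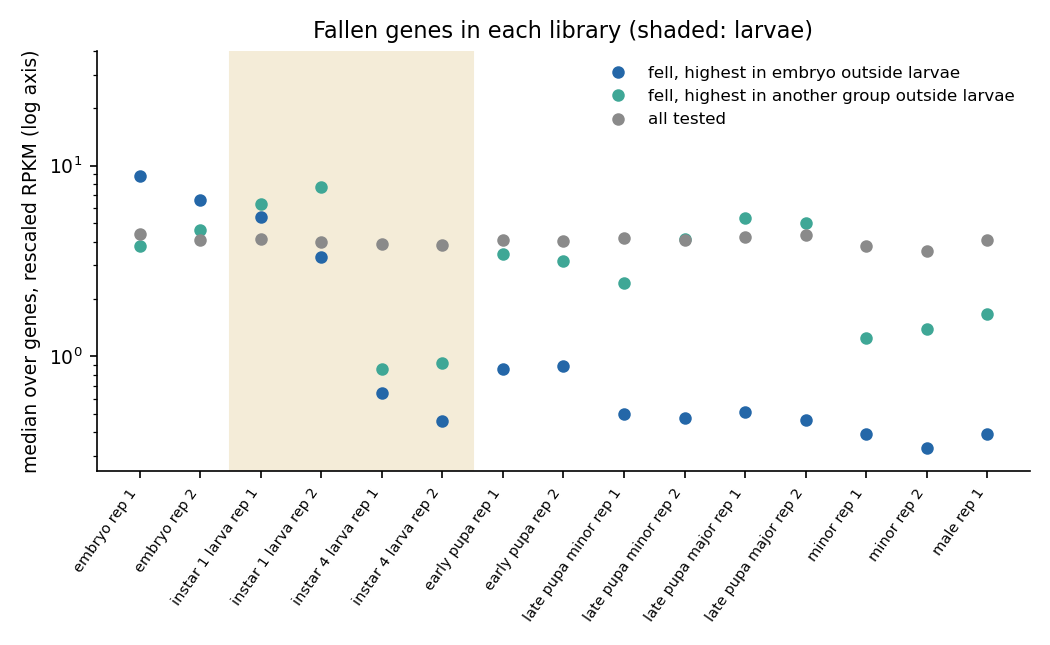
The y axis (log) gives the median rescaled RPKM over genes in each of 15 libraries for the 188 fallen genes highest in embryo outside larvae (blue), the 97 other fallen genes (green) and all tested genes (grey), with the larval libraries shaded. The blue median is 5.38 in instar 1 replicate 1 and 3.34 in replicate 2, and the green one 6.27 and 7.72.

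Between the instar 4 libraries the gaps were wider over all genes. The median gap on the log2 scale was 0.36 between the instar 4 libraries, against 0.22 between the instar 1 libraries, and 45 genes in instar 4, against 27 in instar 1, lay more than 2 log2 units apart. Of the 549 risen genes 184 (33.5%) were higher in instar 4 replicate 1 than in replicate 2, where all tested genes gave 43.2%, and the median gap was -0.28. For the 222 that were also higher in early pupa than in embryo it was 27.5%, with a median gap of -0.31. Most risen genes were thus higher in replicate 2, while both named genes that rose were higher in replicate 1.

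Gene length set the called genes little apart. The median length recovered from the values, mostly a coding length, was 1194 nt in 509 risen genes, 1233 nt in 275 fallen genes and 1142 nt in 10355 tested genes. Some IDs repeat each other: 345 IDs had values identical in all 15 libraries to those of another ID, of which 16 were tested, 4 rose (2 distinct sets of values) and 0 fell. The count of 549 risen IDs therefore holds 2 repeats.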

How the data were processed

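The labels' protocols describe strand-specific libraries of whole-body poly(A) RNA. The submitters' processing notes name STAR 2.5.0b and DESeq2 without a role. The genome build, annotation and counting were not given in the sources used here. In the 1 table that the authors deposited, values are RPKM (reads per gene length and library total), 1 column per library. The 2 header lines identify each column's sample (the second writes worker for minor), and 0 columns had none. Of the IDs, 0 were found among 14020 RefSeq genes of the species (Cflo_v7.5), so no names, coordinates or sequences are given.

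Scaling factors are median ratios to a per-gene geometric mean, taken on 9990 genes with no value of 0. limma 3.58.1 in R 4.3.3 was fitted to log2(rescaled RPKM + 1), with 1 term per group, all 15 libraries and a trended eBayes, on genes with at least 1 rescaled RPKM in at least 2 libraries. Tests were two-sided, with Benjamini-Hochberg adjustment at 0.05. This scale understates the change of low genes. The fit was tested on simulated data. Steps of 1 read in low values gave each library's divisor and the length of 13152 genes; no count test was run. Replicate libraries of an instar differed beyond counting noise: the median chi-square of their reads, on 1 degree of freedom over genes of 20 reads or more, was 7.61 in instar 4 and 4.52 in instar 1.

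Named genes are, among those called on both scales in 1 direction with no overlap between the instars, the 2 with the largest gain and the 2 with the largest loss in mean rescaled RPKM. The comparison, sets and rules were chosen with earlier results of these data known. Alternatives were the deposited and a 75th percentile scale, a pseudocount of 0.1, no filter or a mean of at least 5. Further ones were the 4 larval libraries alone, no trend and a replicate block. Each library of instar 1, instar 4, embryo and early pupa was also left out in turn. No late pupa, minor or male library was left out.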

Additional observations from a re-analysis of the deposited data

How the results depend on the processing

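Scale decided the counts most. On deposited RPKM 5524 genes were called between the instars (149 rose and 5375 fell), and 4442 between early pupa and embryo. With a mean of at least 5 rescaled RPKM 551 were called and 106 fell, of 5231 genes tested. The 75th percentile scale (829), the pseudocount of 0.1 (879), no filter (651), the 4 larval libraries alone (636) and no trend (823) kept the total within 1.5 times of 834. Leaving out 1 larval library gave 368 to 1013 calls, 261 to 580 rises and 107 to 433 falls; on deposited RPKM, an alternative chosen after seeing the data, it gave 2313 calls (101 rose and 2212 fell) without instar 1 replicate 1, 2543 (94 and 2449) without instar 1 replicate 2, 2101 (196 and 1905) without instar 4 replicate 1 and 7478 (88 and 7390) without instar 4 replicate 2. Leaving out 1 embryo or early pupa library gave 974 to 1658 calls between these groups. The cause of these differences was not tested.

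Deviations of same-numbered libraries correlated at -0.36 between the instars and at -0.15 between early pupa and embryo, so the numbers were not taken as pairs. With a replicate block 782 genes were called between the instars and 2188 between early pupa and embryo, and with a crossed block, chosen after seeing the data, 830 between the instars. The 4 named genes kept their direction in each of 17 alternatives. They were chosen as called in the same direction on both scales with no overlap between the instars. On the deposited scale, or with a larval library left out, the kept direction therefore follows from the choice and is no check of them. Depth limits low genes: 3 reads on 1000 nt are 0.098 to 0.177 deposited RPKM in the larval libraries.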
